A study of Mus musculus with 10 samples.

Results

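Norepinephrine was set against saline in cultures of mouse inguinal white adipocytes, using 2 libraries titled Norepinephrine and 2 titled Saline of the 10 libraries in the series. RNA sequencing measured transcript levels in these cultures, prepared by digesting the inguinal fat pads of C57BL/6 males aged 6 to 8 weeks and growing the cells to confluence. The norepinephrine group received 1 mM norepinephrine for 24 h and the saline group received saline for 24 h. The other 6 libraries are 2 each treated with BAFF (500 ng/ml), APRIL (500 ng/ml) or lipopolysaccharide (LPS, 100 ng/ml), also for 24 h. The mice are wild type as far as the labels tell, with no transgene or deletion named. The source label gives primary white adipocytes and the treatment text adipose tissue, and no sorting step is given, so other cells of the fat pad may be present. No label states if both libraries of a group have their own mice, cultures or pools, so each p-value takes only the library-to-library spread into account, which may be technical.

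Norepinephrine is the transmitter that sympathetic nerves release in fat. It binds beta-adrenergic receptors on adipocytes, which act through a stimulatory G protein and adenylyl cyclase to raise the second messenger cyclic AMP. Cyclic AMP activates protein kinase A, which phosphorylates lipases and lipid droplet proteins so that stored triglyceride is split, and which activates the transcription factor CREB. In white fat, prolonged beta-adrenergic signalling is known to induce browning, the appearance of adipocytes that carry the uncoupling protein UCP1 and burn fatty acids for heat.

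Levels are in TPM, a length-scaled share of the transcripts of a library, and fold changes are differences of log2(TPM + 1) between group means, given ± SE, a scale on which changes of genes with low TPM come out too small. The files hold no counts, so the read depth behind each value is unknown. The 4 libraries summed to between 958126 and 964726 TPM and held 12879 to 13104 genes at 1 TPM or more. Mitochondrially encoded transcripts took 20.2 and 22.4% of the listed TPM with saline and 15.9 and 16.9% with norepinephrine. Of this, the short gene mt-Atp8 alone took 12.4 and 13.6% with saline and 8.59 and 9.58% with norepinephrine. The other such genes took 7.73 and 8.78% with saline and 7.32 and 7.35% with norepinephrine. All 10 libraries entered the estimate of the spread, including the 2 labelled APRIL, which stood apart: they correlated at 0.845 to 0.879 with the other 8 libraries, against 0.946 to 0.991 among those 8. Their summed Y-linked transcripts were 0.489 to 0.775 TPM, against 101 to 123 TPM in the 4 libraries compared here, although all are labelled male. Counts of members called in a list are therefore also given without the libraries labelled APRIL, that is, with the spread taken from 8 libraries. In that fit 5.38% of all tested genes passed the threshold given below as higher and 1.29% as lower, the shares to set beside such counts.

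With norepinephrine, genes of thermogenesis, fatty acid oxidation and lipid storage were among the largest rises, and genes of the unfolded protein response were among the largest falls. Of 13223 genes tested with limma, 97 (0.734%) rose and 13 (0.0983%) fell at a Benjamini-Hochberg adjusted p under 0.05, together 110 (0.832%). Among them 60 rose and 10 fell by a fitted difference of at least 2-fold, while a limma test for a difference over 1.5-fold called 0 and 0 (247 genes at an unadjusted p under 0.05). Ucp1 (ENSMUSG00000031710, chromosome 8, 83290352 to 83298452, plus strand), the uncoupling protein of brown and beige fat, had the largest rise, from 0.0461 and 0.123 TPM with saline to 12.9 and 26.3 TPM with norepinephrine (log2 fold change 4.17 ± 0.54, adjusted p = 0.0265). Sdf2l1 (ENSMUSG00000022769, chromosome 16, 17130138 to 17132383, minus strand), a cofactor of the endoplasmic reticulum chaperone BiP, had the largest fall among the 13, from 79.0 and 66.0 TPM with saline to 13.9 and 19.3 TPM with norepinephrine (-2.07 ± 0.23, adjusted p = 0.021). In all 110 the norepinephrine libraries lay beyond both saline libraries, as they did, above, in 34.9% and, below, in 23.5% of all tested genes. A gap between the groups in a called gene follows largely from the call, so it adds no support where it is described below. The median log2 fold change of all tested genes was 0.04, with 56.1% of them above 0 and 43.9% below, and 18.6% had an unadjusted p under 0.05. For 10 of the 97 rises, Ucp1 among them, both saline libraries were under 1 TPM, and for 1 of the 13 falls both norepinephrine libraries were. These genes entered the test only through the group where they are high and could be called in 1 direction only. Without the libraries labelled APRIL, 712 genes (5.38%) passed as higher and 170 (1.29%) as lower, and these include all 110. With 1 library left out, few calls were left: 1 higher and 0 lower without saline library 1, 1 and 2 without saline library 2, and 0 and 0 without norepinephrine library 1 or library 2, where 1369 and 2019 genes had an unadjusted p under 0.05. Scaling the libraries by median ratios gave 137 higher and 54 lower, and leaving out the mitochondrially encoded genes gave 65 and 24, so that the share of rises among calls went from 88.2% to 71.7% and 73.0%. Of the genes described, Dbp, Dgat1, Nr1d1 and Per3 did not pass with the first of these, and Bmp3, Dbp, Dgat1, Ehhadh, Irs2, Nr1d2, Per3, Smad7 and Sod2 did not pass with the second. Of the 47 genes past the threshold that the rule for naming picked, 18 stayed with a pseudocount of 0.1, 17 with the filter loosened to a value above 0 in 1 library and 34 with the 4 libraries fitted alone. With each of these and both scalings, 12 of the 47 stayed: Acadl, Cd55, Ddit3, Derl3, Hif1a, Pim3, Plin2, Plk2, Rasd1, Sdf2l1, Slc25a20 and Trib3.

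**Figure D1:**
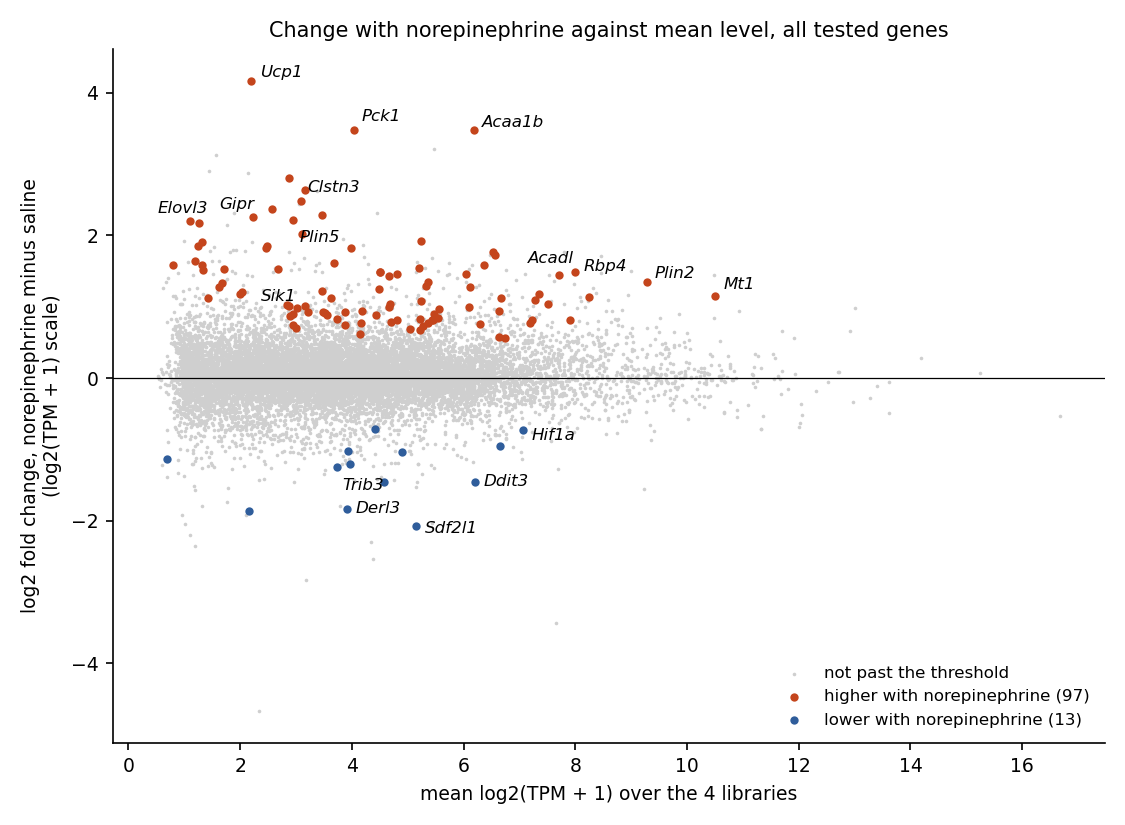
Each point is 1 of the 13223 tested genes, with its mean log2(TPM + 1) over the 4 libraries on the horizontal axis and its log2 fold change, norepinephrine minus saline, on the vertical axis. The 97 genes that rose are red and the 13 that fell are blue, with Ucp1, Pck1 and Acaa1b at the top and Sdf2l1 and Derl3 at the bottom. Grey points did not pass.

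No gene of the receptors or of the first steps of the pathway passed the test. Adrb3, the beta-adrenergic receptor typical of rodent adipocytes, was the most abundant adrenergic receptor gene, at 119 and 141 TPM with saline and 149 and 137 TPM with norepinephrine (0.14 ± 0.29, adjusted p = 0.839), and its groups overlapped. Adrb1 stood at 0.320 and 0.280 TPM with saline and 0.558 and 1.05 TPM with norepinephrine. Of the list of adrenergic receptors and G-protein coupling genes, 0 of 18 tested members rose and 0 fell (4 at an unadjusted p under 0.05), with a median log2 fold change of 0.08. Gnas, which encodes the stimulatory G protein subunit, was at 690.1 and 695 TPM with saline and 775 and 818 TPM with norepinephrine (0.20 ± 0.10, adjusted p = 0.304). Without the libraries labelled APRIL, 1 member passed as higher, the adenylyl cyclase gene Adcy6, at 30.5 and 27.4 TPM with saline and 42.1 and 40.0 TPM with norepinephrine (adjusted p = 0.0813 with all 10 libraries and 0.0249 without those). The list of genes for catecholamine uptake and breakdown had 8 tested members, of which 0 rose and 0 fell (0 at an unadjusted p under 0.05), and 0 passed without the libraries labelled APRIL.

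Downstream of cyclic AMP, the genes of the enzymes that break it down lay above 0 but did not pass with 10 libraries. Of the cyclic nucleotide phosphodiesterases, 0 of 13 tested members rose and 0 fell (5 at an unadjusted p under 0.05). Yet 13 of 13 lay above 0, against 56.1% of all tested genes, with a median of 0.39. Without the libraries labelled APRIL, 4 passed as higher, against 5.38% of all tested genes, and 0 as lower. Pde3b, the phosphodiesterase through which insulin restrains lipolysis, was at 44.5 and 36.9 TPM with saline and 108 and 102 TPM with norepinephrine (adjusted p = 0.089, and 0.00428 without the libraries labelled APRIL). Of the protein kinase A subunits and anchors, 0 of 12 tested members rose and 0 fell (3 at an unadjusted p under 0.05), with a median of 0.19, and 2 passed as higher and 0 as lower without the libraries labelled APRIL. Prkar2b, the regulatory subunit most abundant in fat, was at 64.2 and 62.6 TPM with saline and 179.9 and 186 TPM with norepinephrine (adjusted p = 0.0669, and 0.00398 without those libraries), and its groups did not overlap.

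Among CREB-responsive immediate and feedback genes, 4 of 25 tested members rose and 0 fell, and the median was 0.17, with 4 higher and 1 lower without the libraries labelled APRIL. The 4 that rose were Pck1, Rasd1, Sik1 and Irs2. Pck1 (ENSMUSG00000027513, chromosome 2, 173153048 to 173159273, plus strand), which encodes phosphoenolpyruvate carboxykinase, the enzyme that adipocytes use to make the glycerol backbone of triglyceride, rose from 3.62 and 4.20 TPM with saline to 56.1 and 51.3 TPM with norepinephrine (3.48 ± 0.41, adjusted p = 0.0238). Rasd1, a small G protein induced by hormones, rose from 18.5 and 23.1 TPM with saline to 61.7 and 61.9 TPM with norepinephrine (1.53 ± 0.19, adjusted p = 0.0257). Sik1, a kinase that feeds back on CREB coactivators, rose from 4.81 and 4.78 TPM with saline to 10.8 and 10.1 TPM with norepinephrine (0.98 ± 0.16, adjusted p = 0.0434). Irs2, an adaptor of the insulin receptor, rose from 5.16 and 5.40 TPM with saline to 11.4 and 11.8 TPM with norepinephrine (1.01 ± 0.16, adjusted p = 0.0441). For each of these genes both norepinephrine libraries stood above both saline libraries, as in all called rises. The orphan nuclear receptor genes of the NR4A family, known for fast and short induction by cyclic AMP, did not pass after 24 h. Nr4a1 was at 3.48 and 5.15 TPM with saline and 5.37 and 6.35 TPM with norepinephrine (adjusted p = 0.515), Nr4a2 at 2.05 and 2.38 TPM with saline and 1.58 and 1.92 TPM with norepinephrine (adjusted p = 0.511), and Nr4a3 was under the level for testing. Ppargc1a, the coactivator of mitochondrial and thermogenic genes, was at 0.873 and 1.32 TPM with saline and 2.20 and 2.64 TPM with norepinephrine (0.71 ± 0.19, adjusted p = 0.121), without overlap between groups.

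Promoter windows were searched for the letters of the cyclic AMP response element, the site that CREB binds. RefSeq (GRCm38.p6) gives a window of 250 bases before to 50 bases after a transcript start for 9616 of the 13223 tested genes, 12326 windows in all. The search took the full element TGACGTCA and its 5-letter part TGACG on both strands, and the part lies within the full element. The full element was in 2.953% of all windows and in 3.947% (3 of 76) of the windows of genes that rose, those of Clstn3, Flcn and Ormdl3. It was also in 1 of the 10 windows of genes that fell, that of Plk2. The 5-letter part was in 30.748% of all windows, in 35.526% of those of genes that rose and in 30.0% of those of genes that fell. Without the libraries labelled APRIL, the windows of genes that passed as higher held the full element in 3.153% and the part in 28.078%, and those of genes that passed as lower in 2.532% and 31.646%. Among the 5 named genes with the largest rises, Acaa1b, Depp1 and Sema3g have windows with neither match. A match is a description of the letters and not a binding site. The windows of Pck1 (chr2:173152823-173153122, plus strand), Ucp1 (chr8:83290098-83290397, plus strand) and Clstn3 (chr6:124464735-124465034, minus strand) follow, 5′ to 3′, with matches in capitals, and were picked because they hold matches in genes with large rises. A further window of Clstn3 (chr6:124462695-124462994) holds none. Both lie near the 5′ end of the gene, which spans 124430759 to 124464794 on the minus strand. Neither window was tied to an isoform of Clstn3. In Pck1 the match begins 90 bases before the transcript start, in Ucp1 147 bases before it, and in Clstn3 the full element spans the start.
Pck1: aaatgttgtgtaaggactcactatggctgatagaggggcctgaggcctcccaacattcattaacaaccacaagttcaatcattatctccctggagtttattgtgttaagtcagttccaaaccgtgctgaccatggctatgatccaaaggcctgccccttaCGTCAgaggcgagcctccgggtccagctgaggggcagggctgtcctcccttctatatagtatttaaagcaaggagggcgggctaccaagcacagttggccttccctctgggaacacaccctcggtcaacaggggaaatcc
Ucp1: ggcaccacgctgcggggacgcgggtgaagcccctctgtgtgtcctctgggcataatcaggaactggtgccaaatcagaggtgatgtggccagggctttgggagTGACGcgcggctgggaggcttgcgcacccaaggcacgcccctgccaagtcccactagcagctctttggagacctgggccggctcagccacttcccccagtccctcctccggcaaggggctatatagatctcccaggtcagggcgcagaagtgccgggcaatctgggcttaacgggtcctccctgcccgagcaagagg
Clstn3: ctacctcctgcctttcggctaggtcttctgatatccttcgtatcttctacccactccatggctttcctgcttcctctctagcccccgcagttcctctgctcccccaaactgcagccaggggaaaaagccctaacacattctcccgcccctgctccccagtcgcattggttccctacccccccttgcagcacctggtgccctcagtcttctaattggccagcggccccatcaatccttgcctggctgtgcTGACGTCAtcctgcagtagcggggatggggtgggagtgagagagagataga

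Ucp1, Elovl3 and Clstn3, genes that mark thermogenic adipocytes, rose from low levels. In the list of thermogenic adipocyte genes, 3 of 21 tested members rose and 0 fell. The median log2 fold change was 1.27, beside 0.04 for all tested genes. Both norepinephrine libraries were above both saline libraries in 17 of the 21, against 34.9% of all tested genes. Members such as Ucp1, Elovl3 and Cidea had both saline libraries under 1 TPM and entered the test only through norepinephrine. The filter thus fixed their side in this count and in the median. Elovl3, a fatty acid elongase of brown fat induced by cold, rose from 0.0990 and 0.169 TPM with saline to 2.46 and 6.49 TPM with norepinephrine (2.17 ± 0.34, adjusted p = 0.0426), and like Ucp1 it could be called only as higher. Clstn3, the locus of the adipocyte calsyntenin isoform of multilocular fat cells, rose from 2.24 and 3.01 TPM with saline to 18.5 and 19.9 TPM with norepinephrine (2.48 ± 0.34, adjusted p = 0.0282). The values are sums over the gene, so they do not tell its isoforms apart. Ucp1 and Elovl3 differed within the norepinephrine group, with library 2 above library 1 in both, and saline levels were under 1 TPM. Without the libraries labelled APRIL, 12 members passed as higher, against 5.38% of all tested genes, and 0 as lower. Among them, Cidea, a lipid droplet protein of brown fat, was at 0.587 and 0.665 TPM with saline and 15.1 and 7.71 TPM with norepinephrine (adjusted p = 0.0541 with 10 libraries, 0.00665 without those labelled APRIL). Cox7a1, the cytochrome oxidase subunit of muscle and brown fat, was at 153 and 146 TPM with saline and 433 and 407 TPM with norepinephrine (adjusted p = 0.061 and 0.00267), and was chosen after its values were seen. Nrg4, a secreted factor of brown fat, was at 2.64 and 4.43 TPM with saline and 12.4 and 12.8 TPM with norepinephrine (adjusted p = 0.0687 and 0.0146). Dio2, the deiodinase that makes active thyroid hormone in brown fat, was at 0.142 and 0.121 TPM with saline and 0.156 and 0.143 TPM with norepinephrine, under the level for testing.

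**Figure D2:**
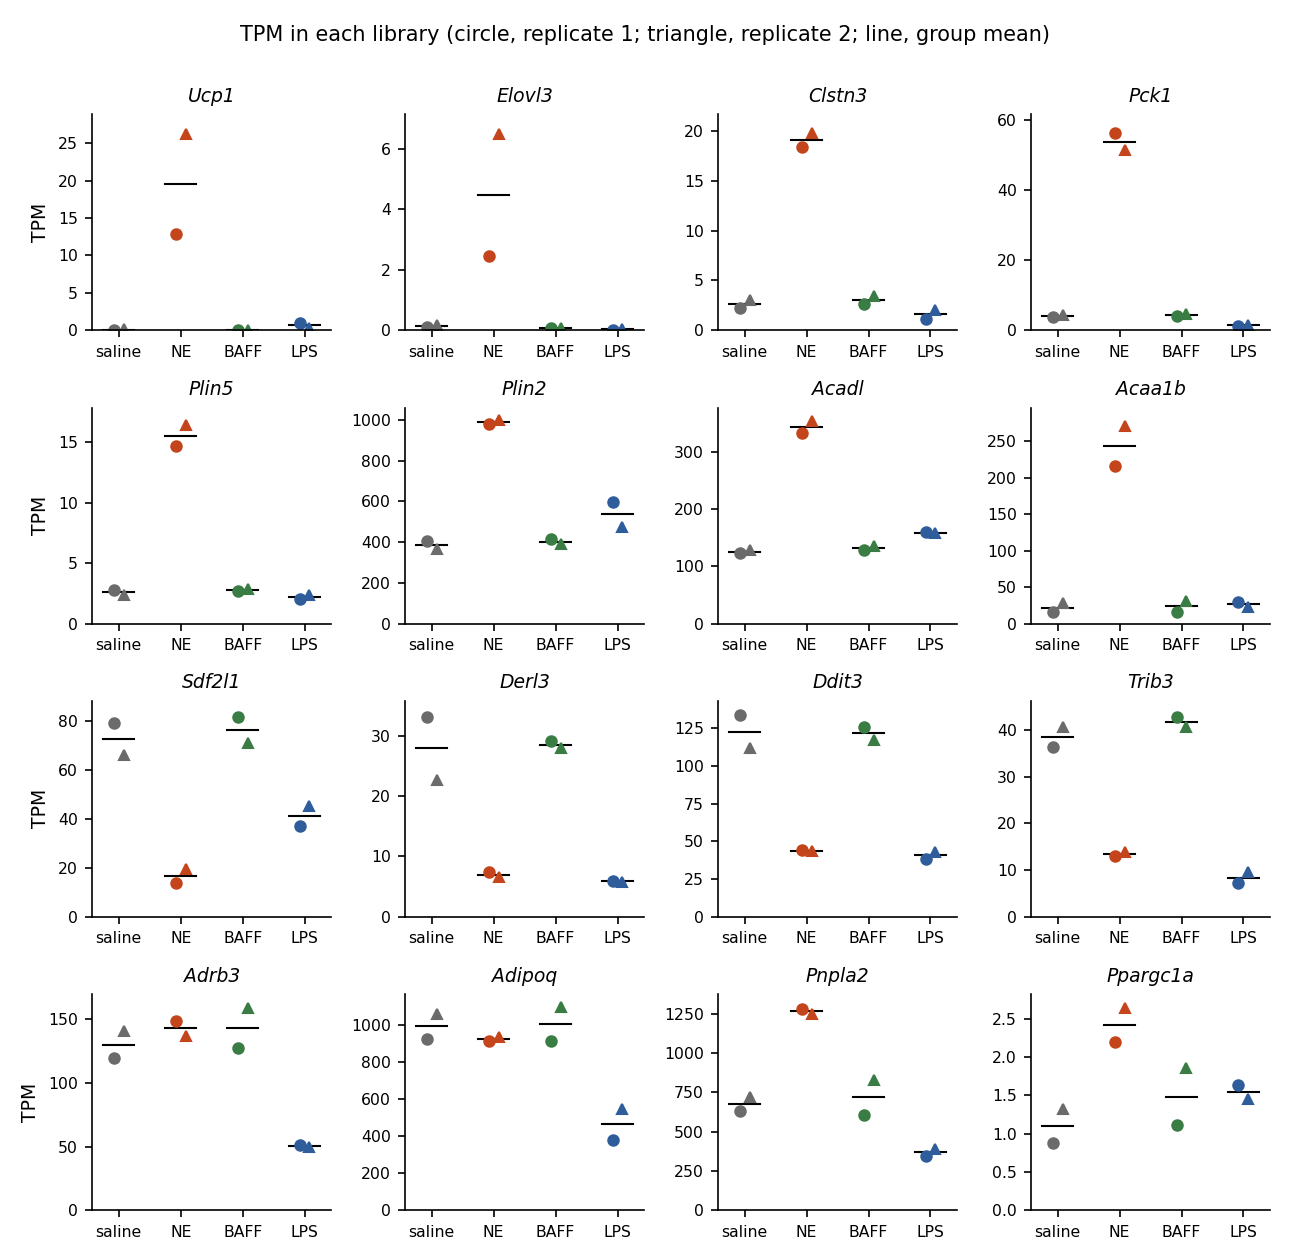
Each panel shows 1 gene in TPM on a linear axis from 0, with a circle for replicate 1, a triangle for replicate 2 and a line at the mean of the group, for saline, norepinephrine (NE), BAFF and LPS. Ucp1 to Acaa1b are higher with norepinephrine than in the other 3 groups, Sdf2l1 to Trib3 are lower than with saline and BAFF, and Adrb3 and Adipoq are near saline.

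Among genes of the lipid droplet and of lipolysis, Plin2, Plin5, Angptl4 and Hcar2 rose. Of the lipid droplet proteins, 2 of 12 tested members rose and 0 fell. All 12 lay above 0, against 56.1% of all tested genes, with a median of 0.72. Without the libraries labelled APRIL, 5 passed as higher, against 5.38% of all tested genes, and 0 as lower. Plin2, the coat protein of droplets in many cell types, rose from 407 and 368 TPM with saline to 979.9 and 999 TPM with norepinephrine (1.35 ± 0.15, adjusted p = 0.0238). Plin5, which couples droplets to mitochondria in oxidative tissues, rose from 2.81 and 2.35 TPM with saline to 14.7 and 16.4 TPM with norepinephrine (2.21 ± 0.35, adjusted p = 0.0441). For both genes the 2 libraries within each group were close to each other and the groups were well apart. Plin1, the main coat protein of mature white adipocytes, was low in all 4 libraries, at 12.4 and 5.62 TPM with saline and 15.3 and 9.32 TPM with norepinephrine, and its groups overlapped. Among lipolysis enzymes and regulators, 2 of 19 tested members rose and 0 fell, with a median of 0.58, and 7 passed as higher and 1 as lower without the libraries labelled APRIL. Angptl4, a secreted inhibitor of lipoprotein lipase, rose from 184 and 174 TPM with saline to 345 and 288 TPM with norepinephrine (0.82 ± 0.12, adjusted p = 0.0319). Hcar2, a G-protein-coupled receptor for ketone bodies and niacin that restrains lipolysis, rose from 6.59 and 6.05 TPM with saline to 25.5 and 17.9 TPM with norepinephrine (1.61 ± 0.23, adjusted p = 0.0321). Pnpla2, which encodes adipose triglyceride lipase, was at 632 and 721 TPM with saline and 1280.2 and 1248 TPM with norepinephrine (0.90 ± 0.50, adjusted p = 0.366, and 0.0261 without the libraries labelled APRIL), with no overlap between groups. Lipe, hormone-sensitive lipase, was at 193 and 213 TPM with saline and 339.7 and 367 TPM with norepinephrine (adjusted p = 0.505 and 0.0212). Cav1, caveolin, was the member lower in that fit, at 476 and 508 TPM with saline and 267 and 303 TPM with norepinephrine (adjusted p = 0.0656 and 0.0284).

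Acadl and Slc25a20 of mitochondrial fatty acid oxidation, and Ehhadh and Acaa1b of the peroxisomal pathway, rose. In the list of fatty acid uptake and oxidation, 4 of 24 tested members rose and 0 fell, with a median of 1.04. Both norepinephrine libraries were above both saline libraries in 23 of the 24, against 34.9% of all tested genes. Without the libraries labelled APRIL, 20 members passed as higher, against 5.38% of all tested genes, and 0 as lower. Acadl, a mitochondrial acyl-CoA dehydrogenase, rose from 123 and 128 TPM with saline to 332 and 354 TPM with norepinephrine (1.45 ± 0.17, adjusted p = 0.0238). Slc25a20, the carnitine carrier of the inner mitochondrial membrane, rose from 24.1 and 25.9 TPM with saline to 49.0 and 59.4 TPM with norepinephrine (1.08 ± 0.13, adjusted p = 0.0238). For both the groups were farther apart than the libraries within a group. Ehhadh, the peroxisomal bifunctional enzyme, rose from 4.75 and 4.64 TPM with saline to 8.70 and 10.5 TPM with norepinephrine (0.89 ± 0.15, adjusted p = 0.0492). Acaa1b (ENSMUSG00000010651, chromosome 9, 119148023 to 119157093, minus strand), a peroxisomal thiolase, rose from 15.6 and 27.7 TPM with saline to 216 and 271 TPM with norepinephrine (3.47 ± 0.55, adjusted p = 0.0434). Its transcript is 96.6% identical over 1428 bases to that of Acaa1a, so kallisto's split between them is uncertain. Acaa1a was at 47.1 and 42.9 TPM with saline and 44.4 and 46.6 TPM with norepinephrine (0.02 ± 0.14, adjusted p = 0.967). Pdk4, the kinase that shuts off pyruvate dehydrogenase when fat is burned, had a large difference that did not pass with 10 libraries, at 12.4 and 15.1 TPM with saline and 144 and 125 TPM with norepinephrine (3.20 ± 0.60, adjusted p = 0.0581, and 0.00298 without the libraries labelled APRIL).

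The respiratory chain is encoded in part in the nucleus and in part in mitochondria, and the medians of these lists lay on opposite sides of 0. Of 32 nuclear-encoded respiratory chain genes, 0 rose and 0 fell with 10 libraries (16 at an unadjusted p under 0.05). All 32 lay above 0, against 56.1% of all tested genes, with a median of 0.50, a smallest log2 fold change of 0.16 and a largest of 0.85. In 32 of them both norepinephrine libraries were above both saline libraries, against 34.9% of all tested genes. Without the libraries labelled APRIL, 26 of the 32 passed as higher, against 5.38% of all tested genes. Their summed level was 7609 and 8173 TPM with saline and 10953 and 11435 TPM with norepinephrine. Uqcrfs1, the iron-sulfur subunit of complex III, was at 89.6 and 94.9 TPM with saline and 159.9 and 169 TPM with norepinephrine (adjusted p = 0.0801 and 0.00504). Of 13 mitochondrially encoded genes, 0 rose and 0 fell (4 at an unadjusted p under 0.05), with a median of -0.34 and 0 passing without the libraries labelled APRIL, and mt-Nd4, a complex I subunit, was at 4843 and 5577 TPM with saline and 3248 and 3471 TPM with norepinephrine (adjusted p = 0.127). Since TPM are shares of a library, a lower mitochondrial share raises all other values. The counts over all tested genes with these genes left out are given above. Leaving them out moved the median log2 fold change of all tested genes from 0.04 to -0.03. The part of this share in the values of the 2 lists was not tested.

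Pck1, Lpin1 and Dgat1 of triglyceride assembly rose, and Sqle of cholesterol synthesis fell. In glyceroneogenesis and re-esterification, 3 of 14 tested members rose and 0 fell, with a median of 0.79, and 7 passed as higher and 1 as lower without the libraries labelled APRIL. Lpin1, a phosphatidate phosphatase, rose from 25.5 and 24.2 TPM with saline to 63.7 and 65.2 TPM with norepinephrine (1.34 ± 0.19, adjusted p = 0.0308). Dgat1, which joins the last fatty acid to diacylglycerol, rose from 102 and 120.2 TPM with saline to 187 and 191 TPM with norepinephrine (0.77 ± 0.13, adjusted p = 0.0492). Lpin1 and Dgat1 were also the members that rose in fatty acid and triglyceride synthesis, where 2 of 22 tested members rose and 0 fell, with a median of 0.48, and 8 passed as higher and 2 as lower without those libraries. Agpat2, an acyltransferase of triglyceride synthesis whose loss causes lipodystrophy, was at 171 and 219 TPM with saline and 605 and 669 TPM with norepinephrine (1.71 ± 0.36, adjusted p = 0.0687, and 0.00683 without the libraries labelled APRIL). Pck2, the mitochondrial form of the enzyme, was lower in both norepinephrine libraries, at 42.9 and 50.2 TPM with saline and 25.6 and 30.6 TPM with norepinephrine (adjusted p = 0.0621 and 0.0355). For cholesterol synthesis and uptake, 0 of 19 tested members rose and 1 fell, with a median of -0.27, and 1 passed as higher and 5 as lower without the libraries labelled APRIL. Sqle, squalene epoxidase, was the member that fell, from 26.7 and 26.2 TPM with saline to 14.95 and 16.5 TPM with norepinephrine (-0.71 ± 0.12, adjusted p = 0.0492).

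Irs2 of insulin signalling and the adipokine gene Rbp4 rose, and Hif1a, the hypoxia factor, fell. Of the glycolysis and hypoxia response genes, 0 of 25 tested members rose and 0 fell (15 at an unadjusted p under 0.05). Of the 25, 24 lay above 0, against 56.1% of all tested genes, with a median of 0.62. Without the libraries labelled APRIL, 12 passed as higher, against 5.38% of all tested genes, and 0 as lower. Hif1a, the oxygen-regulated subunit of the hypoxia factor, fell from 165 and 178 TPM with saline to 102 and 105 TPM with norepinephrine (-0.73 ± 0.09, adjusted p = 0.0257), and Vegfa, a target of it, was at 278 and 262 TPM with saline and 522 and 519.7 TPM with norepinephrine (adjusted p = 0.0837 and 0.00399). Of the insulin and glucose handling genes, 1 of 21 tested members rose and 0 fell, Irs2 being that member, with a median of 0.49, and 11 passed as higher and 0 as lower without the libraries labelled APRIL. Slc2a4, the insulin-regulated glucose transporter, was at 16.9 and 14.6 TPM with saline and 19.8 and 20.4 TPM with norepinephrine (adjusted p = 0.687 and 0.218). Of the adipocyte identity and adipokine genes, 1 of 21 tested members rose and 0 fell, with a median of 0.34, and 7 passed as higher and 0 as lower without the libraries labelled APRIL. Rbp4, the retinol carrier secreted by fat and liver, rose from 155 and 149 TPM with saline to 505 and 358 TPM with norepinephrine (1.48 ± 0.23, adjusted p = 0.0434). Adipoq, adiponectin, did not pass, at 925 and 1062 TPM with saline and 918 and 934 TPM with norepinephrine (-0.10 ± 0.44, adjusted p = 0.932), and the 4 values lay close together. Fabp4, the fatty acid carrier of adipocytes, was at 5452 and 6287 TPM with saline and 11391 and 11802 TPM with norepinephrine (0.99 ± 0.31, adjusted p = 0.165, and 0.0146 without the libraries labelled APRIL). Lep, leptin, was under 1 TPM in all 4 libraries.

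**Figure D3:**
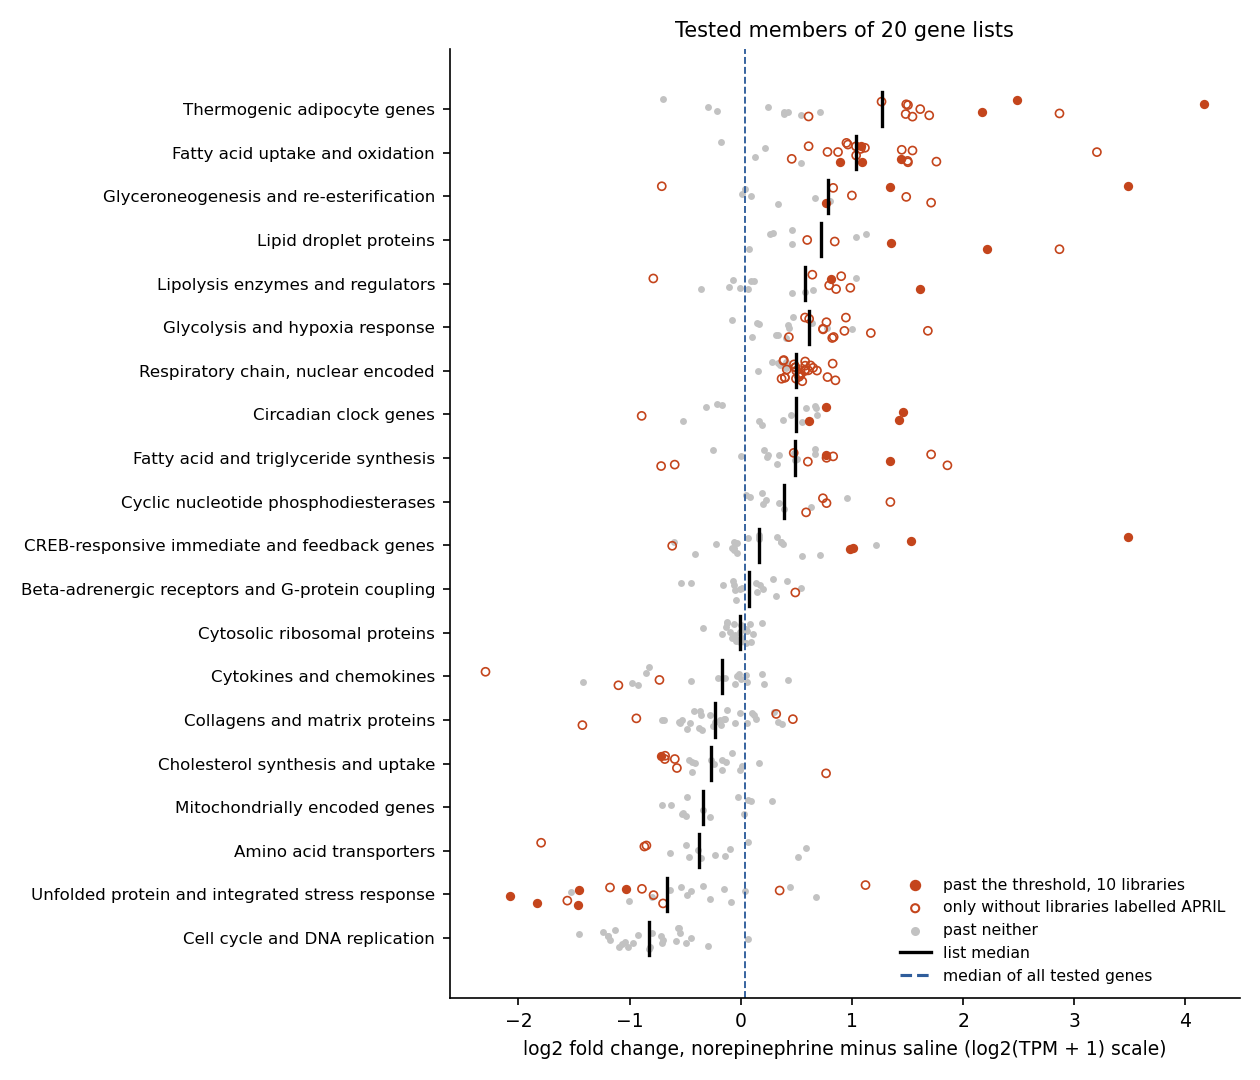
Each point is a tested member of 1 of 20 gene lists, placed by its log2 fold change, norepinephrine minus saline. Filled red points passed with 10 libraries, open red points passed only without the libraries labelled APRIL, black bars are list medians and the dashed line is the median of all tested genes (0.04). Thermogenic and fatty acid oxidation genes lie to the right, stress response and cell cycle genes to the left, and ribosomal protein genes at 0.

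Stress response genes, in a list that joins the unfolded protein and the integrated stress response, made up 5 of the 13 falls. The unfolded protein response raises chaperones and degradation factors when misfolded proteins gather in the endoplasmic reticulum, and the integrated stress response acts through ATF4 on genes of amino acid supply and cell death. In this list 0 of 26 tested members rose and 5 fell, with a median of -0.67. Both norepinephrine libraries were below both saline libraries in 18 of 26, against 23.5% of all tested genes. Ddit3 (ENSMUSG00000025408, chromosome 10, 127290774 to 127296288, plus strand), the stress factor CHOP, fell from 134 and 112 TPM with saline to 44.1 and 43.3 TPM with norepinephrine (-1.46 ± 0.12, adjusted p = 0.0177). Trib3, a pseudokinase target of ATF4 and CHOP, fell from 36.2 and 40.7 TPM with saline to 12.9 and 13.8 TPM with norepinephrine (-1.45 ± 0.18, adjusted p = 0.0257). Derl3 (ENSMUSG00000009092, chromosome 10, 75893413 to 75895941, plus strand), a channel component for the export of misfolded proteins, fell from 33.0 and 22.7 TPM with saline to 7.40 and 6.55 TPM with norepinephrine (-1.84 ± 0.17, adjusted p = 0.0177). In all of these the groups were far apart compared with the difference between the libraries of a group. Mthfd2, a mitochondrial folate enzyme under ATF4, fell from 40.4 and 43.4 TPM with saline to 16.6 and 24.0 TPM with norepinephrine (-1.03 ± 0.17, adjusted p = 0.0441), and Sdf2l1 is given above. Without the libraries labelled APRIL, 2 members passed as higher and 10 as lower. Hspa5, the chaperone BiP, named after its values were seen, was at 1070.2 and 1002 TPM with saline and 314 and 392 TPM with norepinephrine (adjusted p = 0.0716 and 0.00683). Ddit4, a stress-induced inhibitor of mTOR signalling, went the other way, at 72.9 and 64.4 TPM with saline and 146 and 155 TPM with norepinephrine (adjusted p = 0.053 and 0.0111). Of the amino acid transporters, many of which are ATF4 targets, 0 of 14 tested members rose and 0 fell (5 at an unadjusted p under 0.05), with a median of -0.37, and 0 passed as higher and 3 as lower without the libraries labelled APRIL. Of these 14, 11 lay below 0, against 43.9% of all tested genes, and 3 above. The summed level of the list went the other way, at 574 and 699 TPM with saline and 788 and 782 TPM with norepinephrine. Slc7a5, the large neutral amino acid transporter, was at 20.3 and 30.1 TPM with saline and 5.21 and 7.86 TPM with norepinephrine (adjusted p = 0.0687 and 0.0473). The cytosolic heat-shock chaperones, a separate protein-folding list, had 0 rises and 0 falls among 22 (2 at an unadjusted p under 0.05), with a median of -0.15, and 0 passed without the libraries labelled APRIL.

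The promoter windows were also searched, after these values were seen, for the endoplasmic reticulum stress element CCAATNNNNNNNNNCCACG on both strands, the site through which ATF6 acts with NF-Y. It was in 0.146% of all windows, 18 windows of 18 genes. Of these 18 genes, 14 had a log2 fold change below 0, where 43.9% of all tested genes lay. It was in 1 of the 10 windows of genes that fell, that of Derl3, and in 4.43% (7 of 158) of the windows of genes that passed as lower without the libraries labelled APRIL, those of Alg12, Calr, Creld2, Derl3, Dnajc3, Hspa5 and Pdia6. Acacb, an acetyl-CoA carboxylase with the same letters, was on the other side, at 7.65 and 9.88 TPM with saline and 29.9 and 39.1 TPM with norepinephrine (adjusted p = 0.0799 and 0.0118). So was Pan2, a subunit of a poly(A) nuclease, at 5.44 and 5.26 TPM with saline and 7.99 and 7.48 TPM with norepinephrine (adjusted p = 0.124 and 0.0366). The windows of Derl3 (chr10:75893148-75893447, plus strand) and Hspa5 (chr2:34771840-34772139, plus strand) show the element in capitals, beginning 156 and 65 bases before the start, in Derl3 as its reverse complement. In Hspa5 the 5 letters of the cyclic AMP element, beginning 157 bases before the start, are in capitals as well.
Derl3: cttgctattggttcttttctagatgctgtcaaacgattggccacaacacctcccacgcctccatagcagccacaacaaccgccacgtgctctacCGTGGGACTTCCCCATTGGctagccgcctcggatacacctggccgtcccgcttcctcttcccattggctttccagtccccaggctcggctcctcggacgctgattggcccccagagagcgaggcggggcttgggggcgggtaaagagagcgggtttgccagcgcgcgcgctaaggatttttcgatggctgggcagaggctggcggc
Hspa5: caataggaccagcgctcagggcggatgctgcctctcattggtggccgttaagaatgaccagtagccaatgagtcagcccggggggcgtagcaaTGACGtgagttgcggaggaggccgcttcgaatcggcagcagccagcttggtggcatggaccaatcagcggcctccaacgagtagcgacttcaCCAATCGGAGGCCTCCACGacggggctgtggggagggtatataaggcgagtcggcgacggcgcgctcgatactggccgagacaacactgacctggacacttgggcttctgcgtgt

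**Figure D4:**
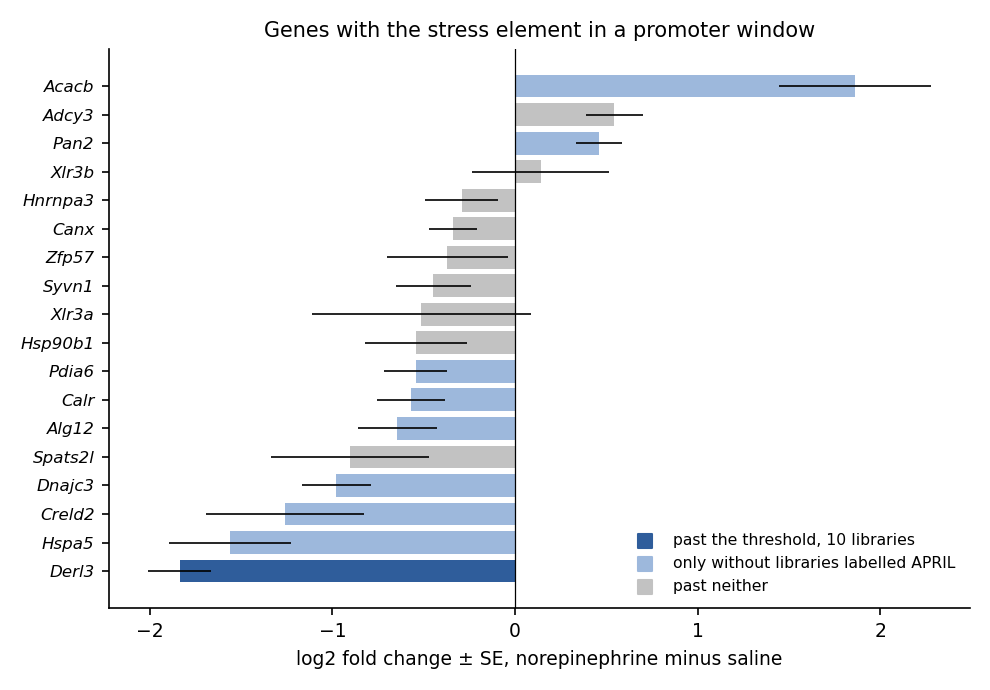
Bars give the log2 fold change ± SE, norepinephrine minus saline, of the 18 tested genes whose promoter window holds the stress element. Dark blue passed with 10 libraries (Derl3), light blue passed only without the libraries labelled APRIL, and grey passed neither. Bars of 14 genes point below 0, and Acacb has the largest value above it.

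Clock genes formed a further group with several calls. Of the circadian clock genes, 4 of 18 tested members rose and 0 fell, with a median of 0.50, and 4 passed as higher and 1 as lower without the libraries labelled APRIL. Nr1d1, the repressor REV-ERB alpha, rose from 15.2 and 13.9 TPM with saline to 44.3 and 37.4 TPM with norepinephrine (1.43 ± 0.22, adjusted p = 0.042). Dbp, a clock output factor, rose from 38.9 and 38.4 TPM with saline to 114 and 103 TPM with norepinephrine (1.46 ± 0.24, adjusted p = 0.0441). Per3 rose from 12.7 and 12.6 TPM with saline to 22.4 and 22.1 TPM with norepinephrine (0.77 ± 0.11, adjusted p = 0.0354) and Nr1d2 from 13.2 and 13.6 TPM with saline to 21.2 and 20.7 TPM with norepinephrine (0.61 ± 0.10, adjusted p = 0.0434). These genes are in the negative limb or the output of the clock, and in each the groups were well apart. However, Dbp and Per3 did not pass with median-ratio scaling or with the mitochondrially encoded genes left out. Nr1d1 did not pass with median-ratio scaling, nor Nr1d2 with the mitochondrially encoded genes left out. Arntl, the activator BMAL1 in the positive limb, was at 6.45 and 6.19 TPM with saline and 2.71 and 3.20 TPM with norepinephrine (adjusted p = 0.0896 and 0.0454), and was named after its values were seen. Dbp and Sphk2 overlap on opposite strands over 539 bases, and Nr1d1 and Thra over 263 bases. Library strandedness is not stated, so reads in those stretches cannot be told apart.

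Other genes with large changes were receptors, kinases and enzymes of varied roles. Depp1, a target of FOXO factors, rose from 1.78 and 1.78 TPM with saline to 27.1 and 12.3 TPM with norepinephrine (2.80 ± 0.43, adjusted p = 0.0411). Sema3g, a secreted semaphorin, rose from 4.11 and 1.53 TPM with saline to 23.7 and 19.0 TPM with norepinephrine (2.63 ± 0.35, adjusted p = 0.0274). Gipr, the receptor of the gut hormone GIP, rose from 1.53 and 0.805 TPM with saline to 9.40 and 9.09 TPM with norepinephrine (2.26 ± 0.30, adjusted p = 0.0266). In each case saline levels were a few TPM at most and norepinephrine levels were several times higher. Ffar4, a receptor of long-chain fatty acids, rose from 3.21 and 3.34 TPM with saline to 18.6 and 14.5 TPM with norepinephrine (2.02 ± 0.21, adjusted p = 0.0207). Pim3, a serine/threonine kinase, rose from 17.9 and 18.9 TPM with saline to 77.7 and 67.5 TPM with norepinephrine (1.92 ± 0.20, adjusted p = 0.0207). Snrk, a kinase related to AMPK, rose from 56.3 and 46.6 TPM with saline to 169.8 and 174 TPM with norepinephrine (1.73 ± 0.26, adjusted p = 0.0411). Nos2, inducible nitric oxide synthase, rose from 2.30 and 1.05 TPM with saline to 13.5 and 11.4 TPM with norepinephrine (2.37 ± 0.35, adjusted p = 0.0354). For none of these genes did the groups overlap, which the rule for naming them required. Cd55, a complement regulator that also marks fibroblast progenitors, rose from 4.82 and 3.32 TPM with saline to 19.7 and 27.8 TPM with norepinephrine (2.28 ± 0.27, adjusted p = 0.0238), but its transcript is 93.2% identical to that of Cd55b over the aligned part. Acat3, an acetoacetyl-CoA thiolase, rose from 1.46 and 2.48 TPM with saline to 8.57 and 10.1 TPM with norepinephrine (1.82 ± 0.24, adjusted p = 0.0266). It shares 97.7% identity with Acat2, which rose from 32.3 and 33.0 TPM with saline to 64.6 and 64.7 TPM with norepinephrine (0.96 ± 0.16, adjusted p = 0.0441). Among falls outside the stress list, Clu, the secreted chaperone clusterin, went from 23.3 and 16.4 TPM with saline to 7.87 and 7.52 TPM with norepinephrine (-1.24 ± 0.18, adjusted p = 0.0377). Plk2, a kinase and p53 target, fell from 21.1 and 24.1 TPM with saline to 10.1 and 8.49 TPM with norepinephrine (-1.20 ± 0.16, adjusted p = 0.0265). Dio3, the enzyme that inactivates thyroid hormone, fell from 21.0 and 20.7 TPM with saline to 8.56 and 11.1 TPM with norepinephrine (-1.02 ± 0.14, adjusted p = 0.0287), and Cyb5r1, a reductase, fell from 128 and 150.1 TPM with saline to 69.7 and 73.0 TPM with norepinephrine (-0.95 ± 0.14, adjusted p = 0.0354).

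Inflammatory, matrix and growth lists had few or no calls, and their counts are followed in parentheses by those higher and lower without the libraries labelled APRIL. The cytokine and chemokine list counted 0 higher and 0 lower of 20 tested, 7 at an unadjusted p under 0.05, median -0.17 (0 and 3 with 8 libraries). Ccl2, the monocyte attractant, was at 56.1 and 34.4 TPM with saline and 5.11 and 12.7 TPM with norepinephrine (adjusted p = 0.0637 and 0.0365). The NF-kB list counted 1 higher and 0 lower of 23 tested, median -0.05 (1 and 0 with 8 libraries), where Sod2, mitochondrial superoxide dismutase, rose from 50.2 and 45.3 TPM with saline to 98.8 and 93.2 TPM with norepinephrine (0.99 ± 0.16, adjusted p = 0.0465). The acute-phase and innate list counted 1 higher and 0 lower of 22 tested, median -0.01 (1 and 1 with 8 libraries), with Nos2 as the rise. Interferon-stimulated genes counted 0 higher and 0 lower of 25 tested, 1 at an unadjusted p under 0.05, median 0.25 (0 and 0 with 8 libraries). MHC class I genes counted 0 higher and 0 lower of 13 tested, 7 at an unadjusted p under 0.05, median 0.41 (0 and 0 with 8 libraries). In 13 of 13 of them both norepinephrine libraries were above both saline libraries, against 34.9% of all tested genes. NRF2 targets and metallothioneins counted 1 higher and 0 lower of 23 tested, median 0.13 (3 and 0 with 8 libraries), and Mt1, a metallothionein, rose from 1064 and 889 TPM with saline to 2485 and 1862 TPM with norepinephrine (1.14 ± 0.19, adjusted p = 0.0441). Collagens and matrix proteins counted 0 higher and 0 lower of 33 tested, 10 at an unadjusted p under 0.05, median -0.24 (2 and 2 with 8 libraries). For matrix proteases the count was 0 higher and 0 lower of 23 tested, 1 at an unadjusted p under 0.05, median -0.06 (0 and 0 with 8 libraries), and for Wnt genes 0 higher and 0 lower of 16 tested, 7 at an unadjusted p under 0.05, median -0.13 (0 and 1 with 8 libraries). The list of TGF-beta, activin and BMP signalling counted 2 higher and 0 lower of 24 tested, median 0.12 (2 and 1 with 8 libraries). Smad7, a feedback inhibitor of that pathway, rose from 8.47 and 10.9 TPM with saline to 19.5 and 18.9 TPM with norepinephrine (0.93 ± 0.15, adjusted p = 0.0434). Bmp3, which could be called only as higher, rose from 0.836 and 0.809 TPM with saline to 3.09 and 2.81 TPM with norepinephrine (1.12 ± 0.19, adjusted p = 0.0465). Of IGF genes there were 0 higher and 0 lower of 12 tested, 2 at an unadjusted p under 0.05, median -0.08 (0 and 0 with 8 libraries). Angiogenic and neurotrophic ligands had 0 higher and 0 lower of 20 tested, 7 at an unadjusted p under 0.05, median 0.10 (4 and 0 with 8 libraries). Glucocorticoid-responsive genes had 0 higher and 0 lower of 17 tested, 7 at an unadjusted p under 0.05, median 0.33 (3 and 1 with 8 libraries). Carriers of monocarboxylates and ions had 0 higher and 0 lower of 13 tested, 4 at an unadjusted p under 0.05, median -0.12 (2 and 0 with 8 libraries). The p53 targets had 0 higher and 1 lower of 17 tested, median 0.03 (0 and 1 with 8 libraries), Plk2 being the fall. Ribosomal proteins had 0 higher and 0 lower of 25 tested, 0 at an unadjusted p under 0.05, median -0.01 (0 and 0 with 8 libraries). Cell cycle genes had 0 rises and 0 falls among 26 (21 at an unadjusted p under 0.05), with a median of -0.82 (0 and 0 with 8 libraries). In 23 of the 26 both norepinephrine libraries were below both saline libraries, against 23.5% of all tested genes. The summed level of the cell cycle list was 628 and 714 TPM with saline and 286 and 516 TPM with norepinephrine, so the norepinephrine libraries differed from each other by more than the saline libraries did. Top2a, a topoisomerase of dividing cells, was at 42.7 and 51.8 TPM with saline and 14.0 and 34.0 TPM with norepinephrine (adjusted p = 0.182).

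Markers of the cell types that such cultures can hold were measured beside these changes. In bulk RNA, fewer cells of a type and less RNA per cell cannot be told apart. Adipocyte markers summed to 8487 and 9694 TPM with saline and 14776 and 15179.9 TPM with norepinephrine, mainly through Fabp4, while 0 of 9 tested markers rose, 0 fell, and 3 passed as higher and 0 as lower without the libraries labelled APRIL. Fibroblast markers summed to 12849 and 11544 and then 11380.3 and 9821 TPM, with 1 of 18 higher, Cd55, and 0 lower, also without the libraries labelled APRIL. Fibroblast marker levels were thus on the scale of the adipocyte markers, chiefly from collagen genes. Smooth muscle and pericyte markers summed to 1534 and 1642 and then 939 and 1107 TPM, with 0 higher and 0 lower of 11, and 1 and 1 without the libraries labelled APRIL. Macrophage and leukocyte markers were higher in replicate 1 of both groups, at 1588 and 556 TPM in saline libraries 1 and 2 and 1566 and 364 TPM in norepinephrine libraries 1 and 2, with 0 higher and 0 lower of 14. Skeletal muscle markers were higher in replicate 2 of both groups, at 15.2 and 153 and 23.4 and 199 TPM, with 0 higher and 0 lower of 9. Endothelial markers summed to 46.5 and 55.9 and 51.7 and 47.4 TPM, with 0 of 9 higher and 0 lower. The lymphocyte (2 tested), epithelial (1), mesothelial (1), Schwann and neuronal (5) and erythroid and platelet (2) lists had 0 members higher and 0 lower, and 0 members of these and of the macrophage, skeletal muscle and endothelial lists passed without the libraries labelled APRIL. The part of cell makeup in the changes above was not tested.

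**Figure D5:**
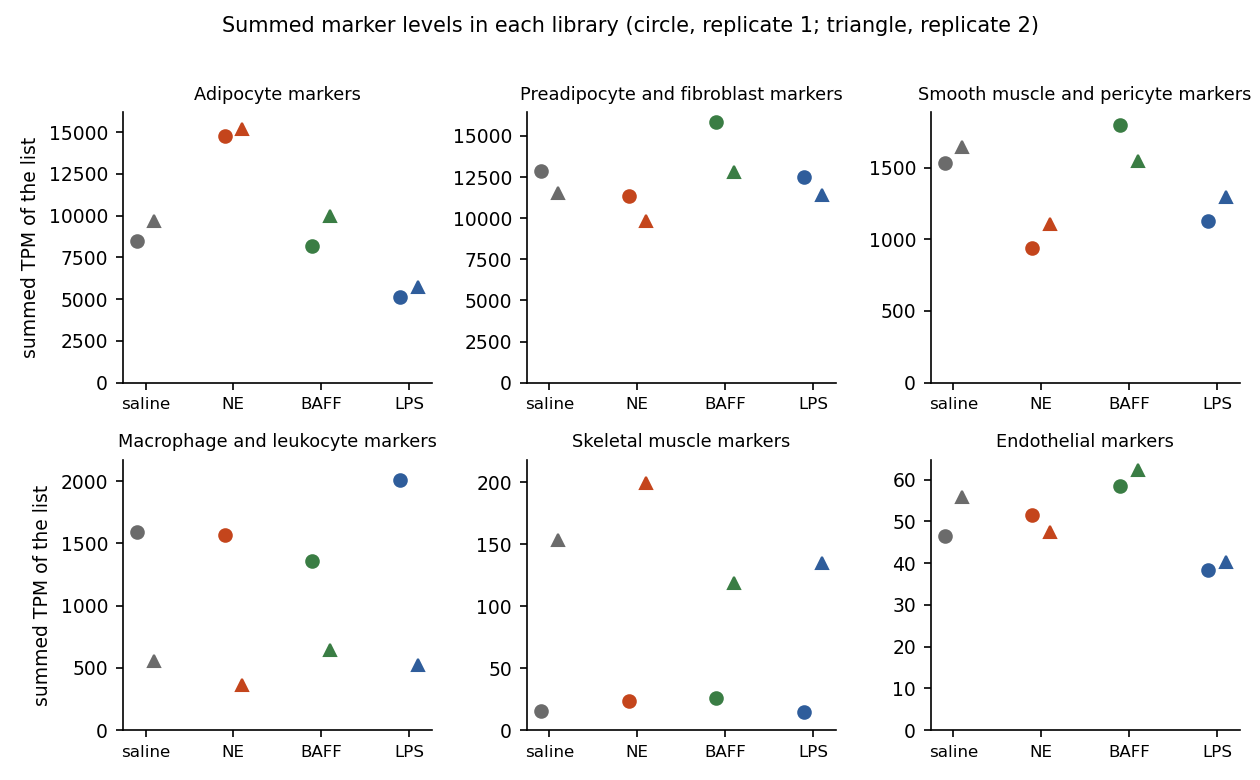
Summed TPM of the marker genes of 6 cell types in each library, on linear axes from 0, with circles for replicate 1 and triangles for replicate 2. Adipocyte marker sums are higher with norepinephrine (NE) than in the other groups, while macrophage sums are higher in replicate 1 and skeletal muscle sums higher in replicate 2 of every group shown.

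To see where the response differed from that to the other treatments, norepinephrine was compared directly with LPS and with BAFF in the same limma fit. Against LPS, 608 genes (4.6%) were higher and 455 (3.44%) lower with norepinephrine, together 8.04%, and against BAFF 29 (0.219%) were higher and 15 (0.113%) lower, together 0.333%. Genes were filtered on the norepinephrine and saline libraries, so genes found only with LPS or BAFF were not tested. Genes that entered only through norepinephrine, such as Ucp1, were tested, so higher and lower counts are not on equal terms. Filtered on all 10 libraries, 1107 genes passed against LPS and 44 against BAFF. Ucp1 was at 0.972 and 0.309 TPM with LPS and 0.0417 and 0 TPM with BAFF, and norepinephrine was higher than both (log2 difference 3.60 ± 0.54, adjusted p = 0.0105, and 4.25 ± 0.54, adjusted p = 0.0263). Pck1 was at 1.32 and 1.57 TPM with LPS and 4.07 and 4.50 TPM with BAFF (norepinephrine minus LPS 4.49 ± 0.41, adjusted p = 0.00156, minus BAFF 3.37 ± 0.41, adjusted p = 0.0263). Plin2 was at 599 and 474 TPM with LPS and 415 and 391 TPM with BAFF (norepinephrine minus LPS 0.89 ± 0.15, adjusted p = 0.0159, minus BAFF 1.29 ± 0.15, adjusted p = 0.0263). For these genes the norepinephrine libraries were the highest of the 8. Adrb3 was at 51.6 and 49.9 TPM with LPS, below norepinephrine (1.47 ± 0.29, adjusted p = 0.0244). Ddit3 was at 38.5 and 43.3 TPM with LPS, where the difference from norepinephrine did not pass (0.10 ± 0.12, adjusted p = 0.667), and at 126 and 118 TPM with BAFF, above norepinephrine (-1.45 ± 0.12, adjusted p = 0.0093). Sdf2l1 was at 36.8 and 45.2 TPM with LPS (norepinephrine minus LPS -1.27 ± 0.23, adjusted p = 0.018) and 81.3 and 70.9 TPM with BAFF (-2.14 ± 0.23, adjusted p = 0.0223). Clu stood at 90.1 and 78.6 TPM with LPS and Ccl2 at 1223 and 1164 TPM, both above norepinephrine (-3.29 ± 0.18, adjusted p = 0.000228, and -7.03 ± 0.46, adjusted p = 0.000474). Nos2, raised by norepinephrine against saline, was at 94.3 and 47.5 TPM with LPS (-2.34 ± 0.35, adjusted p = 0.0102).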

How the data were processed

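RNA sequencing of total RNA from 10 libraries (Illumina TruSeq kit, per the labels' protocols) gave 1 table per library. Transcript levels were quantified by the authors with kallisto and are deposited as TPM, with the mm10 genome named in the submitters' processing notes. The kallisto version, the annotation release and the way transcripts were summed to genes are not given in the sources used here. The tables list 28987 Ensembl gene IDs. GENCODE M21 (GRCm38) gave symbols and positions for 27475 of them, and 225 tested IDs have no symbol. Library groups came from the titles.

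Genes with at least 1 TPM in 2 or more of the 4 libraries were tested on log2(TPM + 1), with a pseudocount of 1, by limma 3.58.1 in R 4.3.3. The fit took 5 group means over all 10 libraries with a mean-variance trend and 5 residual degrees of freedom. All adjusted p-values are from limma, with Benjamini-Hochberg adjustment over all tested genes at 0.05. Saline and norepinephrine libraries thus share 1 estimate of the spread with the others. The fit was tested on simulated data. Direct contrasts with LPS and BAFF came from the same fit. Depth is unknown, so precision rests on the number of libraries.

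The comparison, its members and the 49 gene lists (38 of pathways, 11 of cell types, 770 tested genes) were chosen with earlier results of these data known, so list counts are descriptions. Genes were named by rule: the 15 largest rises and falls past the threshold with a mean of at least 5 TPM and no overlap between groups, the up to 5 smallest p-values of each list, members past the threshold where 8 or fewer passed, the adrenergic receptors and a fixed set of adipocyte genes. Unnamed gene models and pseudogenes were skipped, and with fewer than 15 in a direction the smallest p-values filled up to 10. Acaa1a, Acat2, Alg12, Arntl, Calr, Cox7a1, Creld2, Dnajc3, Flcn, Hspa5, Ormdl3, Pan2, Pdia6, Sphk2, Thra, Top2a and the genes under other observations fall outside the rule and were chosen after their values were seen. Some genes that the rule names are not reported here. Copies were searched with BLAST 2.17.0 in GENCODE M21 transcripts. Figures were drawn with matplotlib 3.10.9.

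Alternatives were other pseudocounts and filters, a replicate block, a 1.5-fold minimum, other scalings, fewer libraries in the fit and each library left out. A block with 8 or 4 libraries and identical values counted once were added after seeing the data, as was the stress element.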

Additional observations from a re-analysis of the deposited data

How the results depend on the processing

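For norepinephrine against saline (97 higher, 13 lower), a pseudocount of 0.1 gave 38 higher and the loosest filter (a value above 0 in 1 of the 4 libraries) 52 higher. A minimum of 5 TPM gave 28 lower. The 4 libraries alone gave 222 and 42, of which 75 are among the 110, and the 8 libraries without those labelled APRIL gave 712 and 170. Median-ratio scaling gave 54 lower, and leaving out mitochondrially encoded genes 24 lower. No gene passed a test for a difference over 1.5-fold (0 and 0), though 247 had an unadjusted p under 0.05. Leaving out 1 library gave 0 to 1 higher and 0 to 2 lower, and 2 of the 47 named genes past the threshold stayed past it without saline library 2 and 0 without any of the other 3. A group left with 1 library takes its spread from the rest. Of the same 47 genes, 43 stayed past the threshold with median-ratio scaling, 37 without mitochondrially encoded genes and 47 without the libraries labelled APRIL. No direction of a named gene past the threshold reversed under any alternative. The cause of these shifts was not tested.

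Against LPS (1063 genes), the 8 libraries gave 2140, the 1.5-fold test 100, and leaving out 1 library 226 to 406. Against BAFF (44 genes), the loosest filter gave 25, the 8 libraries 661, the 1.5-fold test 2, median-ratio scaling 173, and leaving out 1 library 2 to 4.

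The labels give replicate numbers 1 and 2 in each group, but not that a number marks a shared animal or day. Deviations of replicate 1 from the group mean correlated at 0.395 across genes between saline and norepinephrine, at 0.308 to 0.524 over the 6 pairs of saline, norepinephrine, BAFF and LPS, and at -0.128 to 0.0349 between APRIL and these. With the replicate block, calls against saline were 157 higher and 37 lower, and 69 against BAFF. The block gave 1300 and 534 with the 8 libraries, 377 and 118 with the 4 libraries alone, and with the 8 libraries 3144 calls against LPS and 1849 against BAFF. Depth limits cannot be given, since the files hold no counts.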

Other observations

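Several genes that rose belong to none of the lists and were chosen after their values were seen. Hcar1, the lactate receptor that restrains lipolysis, rose from 7.24 and 7.54 TPM with saline to 16.01 and 13.6 TPM with norepinephrine (0.91 ± 0.13, adjusted p = 0.0354). Slc25a34, a mitochondrial carrier, rose from 0.310 and 0.260 TPM with saline to 4.10 and 3.52 TPM with norepinephrine (1.90 ± 0.22, adjusted p = 0.0238), and Slc25a42, the mitochondrial carrier of coenzyme A, rose from 5.27 and 6.18 TPM with saline to 10.4 and 13.2 TPM with norepinephrine (0.92 ± 0.16, adjusted p = 0.0492). Pex5 and Pex6, which serve protein import into peroxisomes, rose from 27.8 and 29.1 TPM with saline to 46.7 and 44.8 TPM with norepinephrine (0.67 ± 0.10, adjusted p = 0.0354) and from 20.5 and 19.8 TPM with saline to 37.95 and 34.6 TPM with norepinephrine (0.82 ± 0.12, adjusted p = 0.0377). Gys2, the liver form of glycogen synthase, rose from 0.290 and 0.310 TPM with saline to 3.22 and 2.86 TPM with norepinephrine (1.63 ± 0.22, adjusted p = 0.0287). In each of these the norepinephrine libraries lay above both saline libraries, as in all called rises. Slc25a34 and Gys2 were under 1 TPM in both saline libraries, so they could be called only as higher.

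Vipr1, a receptor of vasoactive intestinal peptide, fell from 1.35 and 1.43 TPM with saline to 0.0930 and 0.0931 TPM with norepinephrine (-1.13 ± 0.19, adjusted p = 0.0444), and it was also low with BAFF, at 0.0897 and 0.155 TPM, and with LPS, at 0.0507 and 0.190 TPM, so that the saline libraries stood alone among these 8. It passed the filter only through the saline group, so it could be called only as lower. Some of the most negative fold changes rested on 1 saline library: the gene model Gm13568 was at 2969 and 145 TPM with saline and 68.0 and 52.9 TPM with norepinephrine (-3.43 ± 1.58, adjusted p = 0.29), and Gm4613 was at 105 and 5.09 TPM with saline and listed at 0 in both norepinephrine libraries. Interferon-stimulated genes summed to 412 and 356 TPM with saline and 357 and 768 TPM with norepinephrine, so norepinephrine library 2 stood above the other 3. Arg1, arginase, was at 1.02 and 0.363 TPM with saline and 14.1 and 3.49 TPM with norepinephrine and at 189.9 and 27.0 TPM with LPS (norepinephrine minus saline 2.31 ± 0.85, adjusted p = 0.214).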
